A study of Mus musculus with 10 samples.

Results

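The genes described here are 10 genes by which a cell exports lipid or stores it in droplets: Abca1, Abcg1, Nr1h2, Nr1h3, Pltp, Plin2, Plin3, Soat1, Npc1 and Npc2. They were taken by name from a list set for their function, with earlier results of these data known. They are 10 of the 47729 genes in the count table. RNA was sequenced from the RPE (retinal pigment epithelium), the sheet of epithelial cells that lies behind the photoreceptors, of 5 WT (CD1) mice at P40 (postnatal day 40). In each mouse 1 eye received AAV-Best1-Nrf2 together with AAV-Best1-GFP (the Nrf2 eye), and the other eye received AAV-Best1-GFP alone (the control eye). AAV is an adeno-associated virus that carries a gene into cells. The vectors were given under the retina and used a piece of the human Best1 promoter, which is active in the RPE. The Nrf2 insert was the human cDNA. All 10 eyes therefore carried a GFP vector, and the Nrf2 eyes carried 1 vector more, with no vector in the control eyes to match its load. The WT mice gave the study a reference for what Nrf2 does in an eye without degeneration. After the retina was taken off, the cleaned eyecup was put in RNA Protect and RNA was purified from the supernatant, a step that serves to release RPE cells. Markers of other cells were checked in the libraries.

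The RPE takes up the lipid-rich tips of photoreceptor outer segments every day and also takes lipoproteins from the choroidal blood. Lipoprotein and membrane lipid reaches the lysosome, where NPC2 and NPC1 pass free cholesterol out. SOAT1 can then esterify it for storage in droplets coated by perilipins, or ABCA1 and ABCG1 can move it out of the cell to lipoprotein acceptors, which PLTP remodels. The liver X receptors, encoded by Nr1h3 and Nr1h2, sense oxysterols and switch on Abca1, Abcg1 and other genes of this route. Nrf2, encoded by Nfe2l2, is a transcription factor known for turning on antioxidant genes.

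The sequence before the start of 3 of the genes is shown, since the results turn on 1 of them, Pltp, and the other 2 hold letters known from the receptors and from Nrf2. Windows of 250 bases before to 50 bases after the start came from RefSeq (GRCm38.p6, the build of the counts), which matched 8 of the 10 genes with 9 windows and had no entry used for Abcg1 and Npc1. The motifs searched, on both strands, were TGACNNNGC, the core of the antioxidant response element that Nrf2 binds with its partners; GGTTANNNNCGGTCA, the receptor element known from Abca1 itself; the GC box GGGCGG; and the E-box CACGTG. Of all 32851 windows, 12.4% held the first, 0.0122% the second, 35.7% the third and 7.15% the fourth. Of the 9 windows of these genes, 1, 1, 6 and 2 held them, in the same order. No match of a motif overlapped a match of another, and in Plin3 a pair of GC boxes shared 1 base. The whole 250 bases before the start of Pltp, chr2:164857709-164857958 on the minus strand, held a GC box in the reverse orientation, in capitals, and none of the other 3 motifs.
Pltp: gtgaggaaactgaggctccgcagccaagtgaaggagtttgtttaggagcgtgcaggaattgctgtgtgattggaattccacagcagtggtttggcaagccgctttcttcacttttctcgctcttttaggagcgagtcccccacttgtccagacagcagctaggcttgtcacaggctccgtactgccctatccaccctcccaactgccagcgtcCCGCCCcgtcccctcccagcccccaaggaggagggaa

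The receptor element of Abca1 lay on the other strand from position -67 relative to the start, within chr4:53159940-53159969 (minus strand). Its letters were searched because they are known from this gene, so the match is no finding. Soat1 was the only gene with the antioxidant element core, once at position -166, within chr1:156474475-156474504, and once at position 4 after the start, within chr1:156474306-156474335 (both minus strand). Capitals mark the match in each. A match of letters is a description and shows no binding.
Abca1: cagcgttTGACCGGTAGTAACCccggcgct
Soat1 before the start: ctaaggaagtTGACTTGGCctcctcgtagc
Soat1 after the start: gcgatgcgcgTGACGCAGCcgcgggctggg

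The delivered factor was checked first. Nfe2l2 stood at 89.5 ± 14.7 CPM (SD, n = 5; CPM are counts-per-million of the TMM-scaled library total) in the control eyes and at 352 ± 57.1 CPM in the Nrf2 eyes, which is 1.97 higher on the log2 scale (adjusted p = 0.000299, SE 0.11), and it was higher in 5 of 5 mice. Whether reads of the human cDNA were counted under the mouse gene cannot be told apart from a change of the mouse gene itself. Library totals ran from 12298404 to 27310638 counts, and the smallest count of any of the 10 genes in a library was 70. Of 16362 genes tested, 1036 passed an adjusted p of 0.05, which is 6.33%, with 3.6% higher and 2.73% lower in the Nrf2 eyes. For 6.12% of tested genes the values of the 5 control and 5 Nrf2 eyes did not overlap, and 20.2% had the same sign of difference in every mouse of the 5. The summed CPM of 12 RPE markers ran from 22736 to 46213 in control eyes and from 10560 to 30970 in Nrf2 eyes. Of the 12, 6 fell and none rose, and 4 had a log2 fold change above 0. That of 16 macrophage and microglia markers ran from 409 to 530 and from 716 to 2454, and 13 of the 16 rose. Rod markers differed widely between libraries, from 154 to 19538 and from 316 to 7503, with the highest value of each group in mouse 2. In these bulk samples fewer cells of a type and less RNA per cell cannot be told apart.

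All 10 lipid efflux and droplet genes passed the filter on low counts. Of them 1 passed the test, beside 6.33% of all tested genes. This was Pltp, which fell, and it was the only one whose values did not overlap between the groups, beside 6.12% of all tested genes. The other 9 did not pass the test, with log2 fold changes of at most 0.53 in size and adjusted p from 0.153 to 0.865. At an unadjusted p of 0.05, 3 genes passed (Pltp and Plin3 lower, Npc1 higher), beside 19.1% of all tested genes, and none of the 10 was called higher by edgeR or by DESeq2. Fitted log2 fold changes were above 0 for 4 genes and below 0 for 6, with a median of -0.07 against -0.01 over all tested genes. Pltp and Plin3 were lower, and Nr1h3 and Npc1 higher, in all 5 mice. These 4 of 10 genes stand beside the 20.2% of all tested genes.

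**Figure D1:**
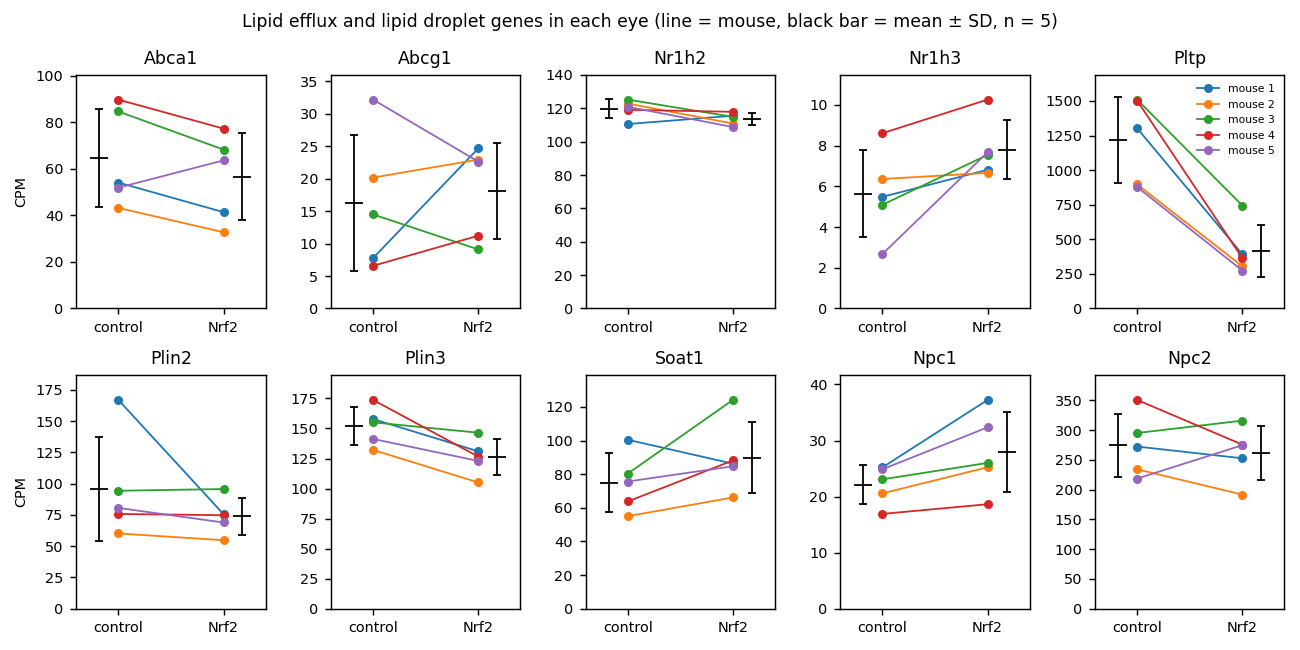
CPM of each of the 10 genes in the control and the Nrf2 eye, with a line for each of 5 mice and the mean ± SD of each group in black. The Pltp lines all go down without overlap, from 878–1510 to 274–744 CPM, while the groups overlap for the other 9 genes.

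Per length, Pltp was by far the most abundant of the 10 genes in the control eyes. Levels per length are given as CPM per kilobase of the longest protein-coding transcript in the GENCODE M21 basic set, and they depend on that choice of transcript. Pltp stood at 547 ± 141 CPM per kilobase (SD, n = 5), followed by Npc2 at 83.1 ± 15.9, Nr1h2 at 59.9 ± 2.80, Plin2 at 50.6 ± 22.1 and Plin3 at 41.7 ± 4.39. Soat1 followed at 8.96 ± 2.07, Abca1 at 6.30 ± 2.04, Npc1 at 4.24 ± 0.66, Nr1h3 at 2.89 ± 1.10 and Abcg1 at 2.78 ± 1.79. The ranges of neighbours in this order did not overlap between Pltp and Npc2, between Npc2 and Nr1h2, or across the step from Plin3 to Soat1. They overlapped for Nr1h2 with Plin2, Plin2 with Plin3, and each neighbour from Soat1 down to Abcg1. In the Nrf2 eyes Pltp was at 187 ± 85.0 CPM per kilobase, still the highest of the 10, beside 79.4 ± 13.8 for Npc2.

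Pltp (ENSMUSG00000017754, chr2:164839518-164857711, mm10) encodes the phospholipid transfer protein, which moves phospholipid between lipoproteins and remodels high-density lipoprotein. Its level in the control eyes of mice 1 to 5 was 1302.9, 896.9, 1509.5, 1502.7 and 877.8 CPM. The Nrf2 eyes of the same mice had 391.7, 304.9, 743.8, 364.5 and 274.2 CPM. The highest Nrf2 eye, that of mouse 3, lay below the lowest control eye, that of mouse 5. The mean fell from 1218 ± 313 to 416 ± 189 CPM (SD, n = 5), which is 3.05-fold lower by the fitted log2 change of -1.61 (SE 0.17, adjusted p = 0.00222). Within mice the difference ran from -2.04 in mouse 4 to -1.02 in mouse 3 on the log2 scale. The call held in all 12 alternatives tried, with log2 fold changes from -1.69 to -1.47, and it was -1.50 with the rod markers as a covariate (adjusted p = 0.0160).

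Pltp shares 495 exonic bases with Ctsa, a lysosomal protease gene on the opposite strand, and the strand setting of the counting was not stated. Ctsa rose, from 239 ± 23.2 to 395 ± 67.1 CPM (log2 fold change 0.72, SE 0.12, adjusted p = 0.0162), in 5 of 5 mice. The neighbour moved in the direction opposite to Pltp, and the part of reads from the shared bases in either value was not tested.

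Across the 10 libraries the genes whose log2 CPM was most like that of Pltp were Slc16a1, a monocarboxylate transporter (Pearson's r = 0.994), Myrip, a melanosome linker (r = 0.994), and Tmem56 (r = 0.992). Their log2 fold changes were -1.45, -1.12 and -1.93. The 12 RPE markers spread widely in their likeness to Pltp. The 6 that fell had r from 0.944 to 0.979: the visual cycle genes Rlbp1 (log2 fold change -1.93, r = 0.979), Lrat (-2.26, r = 0.974), Rdh5 (-1.42, r = 0.973), Rgr (-2.87, r = 0.970) and Rpe65 (-2.88, r = 0.969), and the transcription factor gene Otx2 (-0.63, r = 0.944). The other 6 did not pass the test. Of these, Krt18 (-0.50, r = 0.859) and Mitf (-0.26, r = 0.704) had values below 0, Ttr was at 0.00 (r = 0.442), and the pigment genes Pmel (0.17, r = -0.23) and Tyr (0.88, r = -0.56) and the channel gene Best1 (0.70, r = -0.61) had values above 0. Best1 reached at most 1.56 CPM in any library. These correlations are over 10 libraries that hold the eyes of 5 mice in 2 groups, so they include the difference between groups and are given as a description. The part of the RPE markers that fell in the fall of Pltp was not tested.

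**Figure D2:**
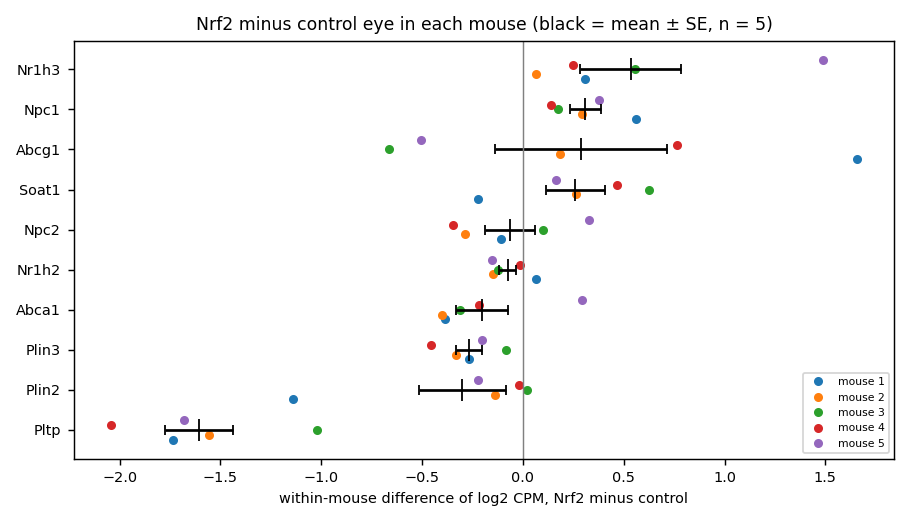
Difference of log2 CPM between the Nrf2 and the control eye of each mouse (points) for the 10 genes, with the mean ± SE over 5 mice in black. All 5 Pltp points lie between -2.04 and -1.02. Plin3 has all 5 points below 0, Nr1h3 and Npc1 have all 5 above 0, and the points of the other 6 genes lie on both sides of 0.

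The efflux transporters gave no call. Abca1 (ENSMUSG00000015243, chr4:53030787-53159895) encodes the pump that loads cholesterol and phospholipid onto lipid-poor apolipoproteins. Control eyes of mice 1 to 5 had 54.1, 43.2, 84.6, 89.7 and 51.9 CPM of Abca1, and Nrf2 eyes 41.4, 32.7, 68.2, 77.2 and 63.6 CPM. It was lower in the Nrf2 eye of 4 mice and higher in that of mouse 5, and the groups overlapped over most of their range. The means were 64.7 ± 20.98 and 56.6 ± 18.8 CPM (SD, n = 5), and the fitted log2 change of -0.20 did not pass (SE 0.13, adjusted p = 0.461). It was -0.33 without mouse 5 (adjusted p = 0.143) and -0.12 without mouse 1, 2 or 3.

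Abcg1 (ENSMUSG00000024030, chr17:31057675-31117988) encodes a transporter that passes cholesterol to mature lipoprotein particles, and it varied most of the 10 among the control eyes, relative to its mean. Its control eyes had 7.7, 20.2, 14.5, 6.6 and 32.2 CPM, and its Nrf2 eyes 24.7, 22.9, 9.1, 11.2 and 22.6 CPM. Mice 1, 2 and 4 had the higher value in the Nrf2 eye, and mice 3 and 5 in the control eye. Its fitted change of 0.27 (log2, SE 0.43, adjusted p = 0.777) rested on mouse 1, whose difference was 1.66, and it was -0.03 without that mouse. The log2 ratio of Abca1 to Abcg1 differed by -0.49 (SE 0.50) in the Nrf2 eyes, with the ratio higher in 2 of 5 mice (two-sided exact paired permutation test, p = 0.4375, adjusted p = 0.583 over 4 pairs of genes). The difference was -0.10 without mouse 1 and -0.81 without mouse 5. The smallest p that 5 mice allow in this test is 0.0625.

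The liver X receptors did not pass the test either. Nr1h2 (ENSMUSG00000060601, chr7:44549616-44553951), the receptor found in most tissues, varied least of the 10 genes among the control eyes. Its control eyes ran from 110.6 to 125.2 CPM and its Nrf2 eyes from 108.8 to 117.9 CPM, with means of 119.8 ± 5.60 and 113.6 ± 3.69 CPM (SD, n = 5). The log2 fold change was -0.08 (SE 0.04, adjusted p = 0.729), and the highest control eye exceeded the lowest by 1.13-fold.

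Nr1h3 (ENSMUSG00000002108, chr2:91184061-91202834), the receptor known from liver, fat and macrophages, was far less abundant per length. The control eyes of mice 1 to 5 had 5.5, 6.4, 5.1, 8.6 and 2.7 CPM and the Nrf2 eyes 6.8, 6.7, 7.5, 10.3 and 7.7 CPM. Every mouse had the higher value in its Nrf2 eye, but the groups overlapped, and the differences ran from 0.07 in mouse 2 to 1.49 in mouse 5. The fitted change of 0.53 (log2, SE 0.25, adjusted p = 0.315) did not pass, and it was 0.30 without mouse 5. In mice 1 to 5 the Nr1h3 differences were 0.31, 0.066, 0.56, 0.25 and 1.49, and the macrophage and microglia marker sums of the Nrf2 eyes 1435, 716, 1090, 1439 and 2454 CPM. The highest and the lowest of both were in mice 5 and 2, and the order of the other 3 mice differed. The part of these cells in the Nr1h3 values was not tested. The log2 ratio of Nr1h3 to Nr1h2 was higher by 0.61 (SE 0.27) in the Nrf2 eyes, in 5 of 5 mice, and its p of 0.0625 (exact paired permutation test, adjusted p = 0.125) was the smallest that 5 mice allow. Without mouse 5 this difference was 0.35.

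The perilipins coat lipid droplets and govern access of lipases to the lipid inside. Plin2 (ENSMUSG00000028494, chr4:86648386-86670060), the coat protein of droplets in most cells other than fat cells, had 166.9, 60.2, 94.3, 75.7 and 80.6 CPM in the control eyes and 75.5, 54.8, 95.7, 74.7 and 68.9 CPM in the Nrf2 eyes. The control eye of mouse 1 had the highest value, and mice 3 and 4 had nearly the same value in both eyes. The log2 fold change of Plin2 was -0.30 (SE 0.21, adjusted p = 0.458), and without mouse 1 it was -0.05.

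Plin3 (ENSMUSG00000024197, chr17:56277476-56292873), a coat protein that moves from the cytosol to nascent droplets, was lower in the Nrf2 eye of every mouse. The control eyes had 157.8, 132.2, 155.1, 173.8 and 141.3 CPM and the Nrf2 eyes 131.0, 105.1, 146.5, 126.6 and 123.0 CPM. The differences were small, from -0.46 to -0.08, and the groups overlapped. With means of 152 ± 16.01 and 126 ± 14.9 CPM (SD, n = 5) and a log2 fold change of -0.27 (SE 0.06), Plin3 had the lowest adjusted p of the 9 genes that did not pass, 0.153. The log2 ratio of Plin2 to Plin3 differed by -0.03 (SE 0.22, exact paired permutation test, p = 0.9375) between the eyes.

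Soat1 (ENSMUSG00000026600, chr1:156424525-156474331) encodes the enzyme that makes cholesteryl ester for droplets. Its control eyes had 100.5, 55.0, 80.3, 63.8 and 75.6 CPM and its Nrf2 eyes 86.2, 66.2, 124.2, 88.1 and 84.7 CPM. It was higher in the Nrf2 eye of 4 mice and lower in that of mouse 1, and the fitted log2 change was 0.26 (SE 0.14, adjusted p = 0.355), or 0.42 without mouse 1 (adjusted p = 0.0854) and 0.16 with the rod covariate (adjusted p = 0.712). The antioxidant element cores shown above were thus in the window of a gene that did not pass the test.

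Neither gene of lysosomal cholesterol export passed the test. Npc1 (ENSMUSG00000024413) encodes the membrane protein that moves cholesterol out of the lysosome. Its control eyes had 25.2, 20.6, 23.1, 16.9 and 24.9 CPM and its Nrf2 eyes 37.3, 25.2, 26.0, 18.6 and 32.4 CPM. Each mouse had the higher value in its Nrf2 eye, by 0.14 to 0.56 on the log2 scale, yet the eyes of different mice overlapped. The log2 fold change was 0.31 (SE 0.08, adjusted p = 0.170). Npc1 shares 511 exonic bases with Rmc1 on the opposite strand, which had a log2 fold change of -0.03 (adjusted p = 0.945).

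Npc2 (ENSMUSG00000021242, chr12:84754562-84773152) encodes the soluble protein that hands cholesterol to NPC1. The control eyes ran from 218.6 to 350.6 CPM and the Nrf2 eyes from 191.7 to 315.8 CPM, with differences from -0.35 in mouse 4 to 0.33 in mouse 5. Its fitted change of -0.06 (log2, SE 0.13, adjusted p = 0.865) was the smallest in size of the 10. The log2 ratio of Npc2 to Npc1 was lower in the Nrf2 eye of all 5 mice, with a mean difference of -0.37 (SE 0.13, exact paired permutation test, p = 0.0625, adjusted p = 0.125).

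By role, and with earlier results of these data known, 9 further lists of lipid handling were drawn up. Their 103 genes were read in the same fit. Of these, 90 were tested and 10 passed (11.1%), 3 higher and 7 lower, beside 6.33% of all tested genes. Their median log2 fold change was -0.03, against -0.01 over all tested genes.

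The 3 genes that rose were Lpl, Lipa and Scd1, and all 3 kept their call in the 12 alternatives. Lpl encodes lipoprotein lipase, which releases fatty acids from lipoprotein triglyceride. The control eyes of mice 1 to 5 had 151.9, 105.4, 87.6, 66.8 and 65.7 CPM of Lpl and the Nrf2 eyes 317.5, 336.7, 531.2, 368.8 and 370.6 CPM, without overlap. The log2 fold change of Lpl was 2.06 (SE 0.30, adjusted p = 0.00414), or 4.18-fold. Lipa, the acid lipase that frees cholesterol from its esters in the lysosome upstream of NPC2 and NPC1, rose from 161 ± 35.4 to 397 ± 52.3 CPM (SD, n = 5; log2 fold change 1.32, SE 0.14, adjusted p = 0.00233), with controls at 122.9 to 216.7 CPM and Nrf2 eyes at 329.5 to 464.8 CPM. Scd1, the stearoyl-CoA desaturase and a known target of the liver X receptors, rose from 14.1 ± 4.34 to 51.4 ± 16.5 CPM (log2 fold change 1.84, SE 0.31, adjusted p = 0.00736).

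Macrophages, fat cells and muscle are known to make Lpl, and macrophages Lipa. The macrophage and microglia markers summed to 1435, 716, 1090, 1439 and 2454 CPM in the Nrf2 eyes of mice 1 to 5. In the same mice the difference of Lipa between the eyes was 0.83, 1.19, 1.45, 1.52 and 1.61 on the log2 scale. The largest Lipa difference and the highest marker sum were both in mouse 5, while the smallest Lipa difference was in mouse 1 and the lowest marker sum in mouse 2. The 7 fat cell markers summed to at most 2.04 CPM in any library, with Lep at 0, and none passed the filter. Skeletal muscle markers summed to 82.1, 47.4, 84.0, 98.9 and 53.1 CPM in the control eyes of mice 1 to 5 and to 4.78, 15.2, 371.7, 232.8 and 534.9 CPM in their Nrf2 eyes. The muscle sum was thus lower in the Nrf2 eye of mice 1 and 2, where Lpl was higher by 1.06 and 1.67 on the log2 scale, and higher in that of mice 3, 4 and 5, where Lpl was higher by 2.60, 2.46 and 2.49. The part of macrophages, fat cells and muscle in the changes of Lpl and Lipa was not tested.

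**Figure D3:**
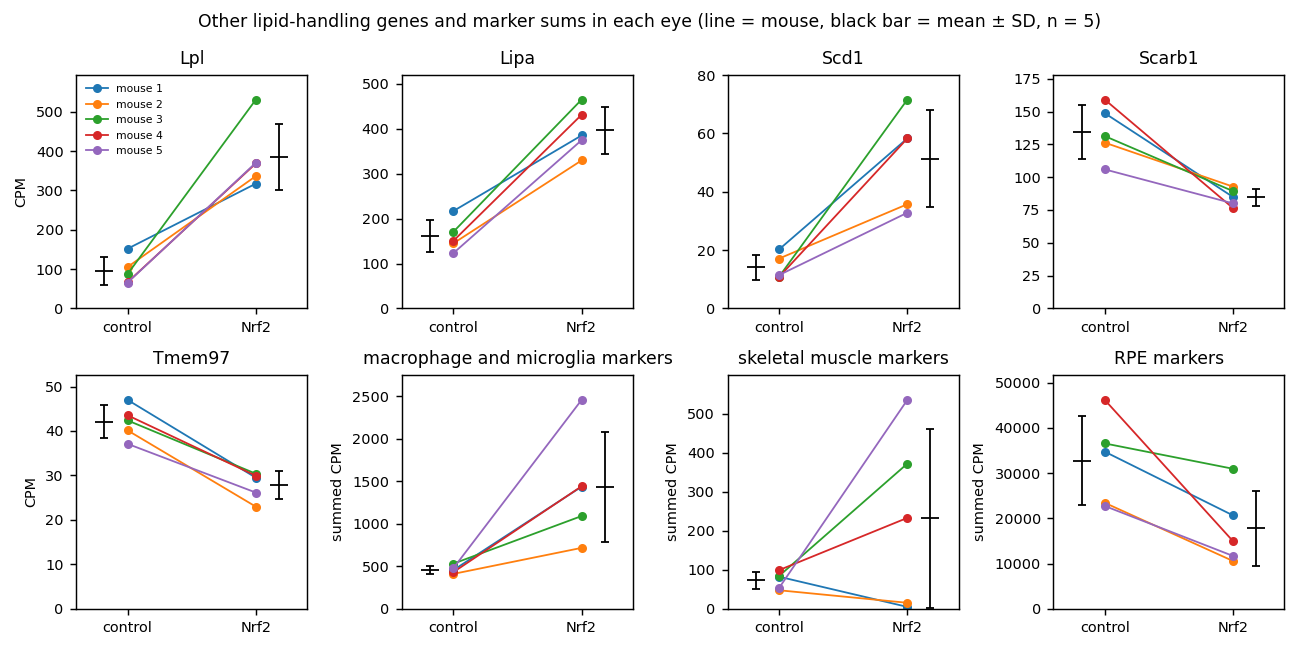
CPM of 5 other lipid-handling genes and summed CPM of 3 marker lists in the control and Nrf2 eye of each mouse (lines), with the mean ± SD of 5 eyes in black. Lpl, Lipa and Scd1 go up and Scarb1 and Tmem97 go down in all 5 mice, the macrophage and microglia markers go up from 409–530 to 716–2454, the RPE markers go down in all 5 mice, and the muscle markers go down in mice 1 and 2 and up in the other 3.

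In the list of efflux acceptors and HDL genes, 10 of 15 were tested, with a median of 0.28. Of these, 1 rose (Lpl) and 1 fell, beside 3.6% higher and 2.73% lower among all tested genes. The gene that fell was Scarb1, the receptor SR-BI that exchanges cholesterol with high-density lipoprotein. It went from 134 ± 20.6 to 84.7 ± 6.67 CPM (log2 fold change -0.65, SE 0.12, adjusted p = 0.0205) and was lower in 5 of 5 mice. Apoe, which encodes an apolipoprotein made by the RPE and an acceptor for ABCA1, had 5434 ± 1294 and 4568 ± 1109 CPM and did not pass (log2 fold change -0.26, SE 0.23, adjusted p = 0.636). The log2 fold change of Apoe was -0.45 without mouse 5, whose Nrf2 eye had the higher value, and -0.12 without mouse 1 or 2.

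Of the 10 partners and related receptors of the liver X receptors, none rose and 2 fell, beside 2.73% of all tested genes (median -0.08). These were Ppara, the fatty acid receptor that drives fat oxidation (log2 fold change -1.01, SE 0.09, adjusted p = 0.0204), and Ncoa1, a coactivator of nuclear receptors (-0.69, SE 0.11, adjusted p = 0.0129). In this list of partners and receptors the number called ran from 0 to 2 over the alternatives. It was 0 with the rod covariate and without mouse 2 or 4. Of the 8 genes in the list of other liver X receptor targets, only Scd1 passed, beside 6.33% of all tested genes (median -0.01). Srebf1, the regulator of fatty acid synthesis and a classic target, was lower in all 5 mice but did not pass (log2 fold change -0.40, SE 0.08, adjusted p = 0.0723), while DESeq2 called it. Mylip, a target that encodes a ubiquitin ligase, had a log2 fold change of -0.03 (adjusted p = 0.928).

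Calls in the droplet lists are read beside the 6.33% of all tested genes. None of the 19 tested genes of droplet coat and assembly (of 22) passed with edgeR, 5 reached an unadjusted p of 0.05 (beside 19.1% of all tested genes) and DESeq2 called 1, Lpin1. Their median was 0.04. Plin4 had a log2 fold change of 0.22 (adjusted p = 0.736), which moved between 0.076 without mouse 5 and 0.48 without mouse 1. Plin5 had one of -0.20 (adjusted p = 0.901), and Plin1, the fat cell perilipin, with at most 14 counts in a library, was not tested. Of 9 genes of droplet and ester breakdown only Lipa passed, and the median of that list was -0.29.

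In sterol esterification and transfer, 12 of 14 genes were tested and 2 fell, beside 2.73% of all tested genes (median -0.04). The number called in this list ran from 0 to 5 over the alternatives, with 5 by DESeq2. Tmem97, a membrane protein that binds NPC1, stood at -0.60 (log2 fold change, SE 0.06, adjusted p = 0.0125), and Gramd1b, which carries sterol from the plasma membrane to the endoplasmic reticulum, also had -0.60 (SE 0.13, adjusted p = 0.0465). Of 11 tested genes of lipid uptake (of 14), 1 fell, again beside 2.73% of all tested genes. It was Lrp8, a lipoprotein receptor family member (log2 fold change -0.81, SE 0.16, adjusted p = 0.0191). Cd36, a fatty acid transporter, did not pass (0.75, SE 0.87, adjusted p = 0.729), moved between 0.034 with the rod covariate and 1.39 without mouse 3, and reached at most 56 counts in a library.

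None of 5 oxysterol enzymes passed with edgeR or DESeq2, beside 6.33% of all tested genes with edgeR. At an unadjusted p of 0.05, 2 passed (again beside 19.1%), and the median was 0.36. Cyp27a1, which makes an oxysterol in mitochondria, stood at -0.73 on the log2 scale (SE 0.31, adjusted p = 0.176). Of 6 sterol sensing genes 1 fell, beside 2.73% of all tested genes. It was Scap, the escort of the sterol regulatory proteins, at -0.62 on the log2 scale (SE 0.13, adjusted p = 0.0284). The median of the list was -0.11. The 7 genes that fell were lower in 5 of 5 mice. None of their calls held with the rod markers as a covariate or without mouse 2, but their log2 fold changes stayed at -1.05 to -0.49 and at -0.92 to -0.51, beside -1.01 to -0.60 in the fit reported here. Lpl, Lipa, Scd1 and Pltp passed in both.

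**Figure D4:**
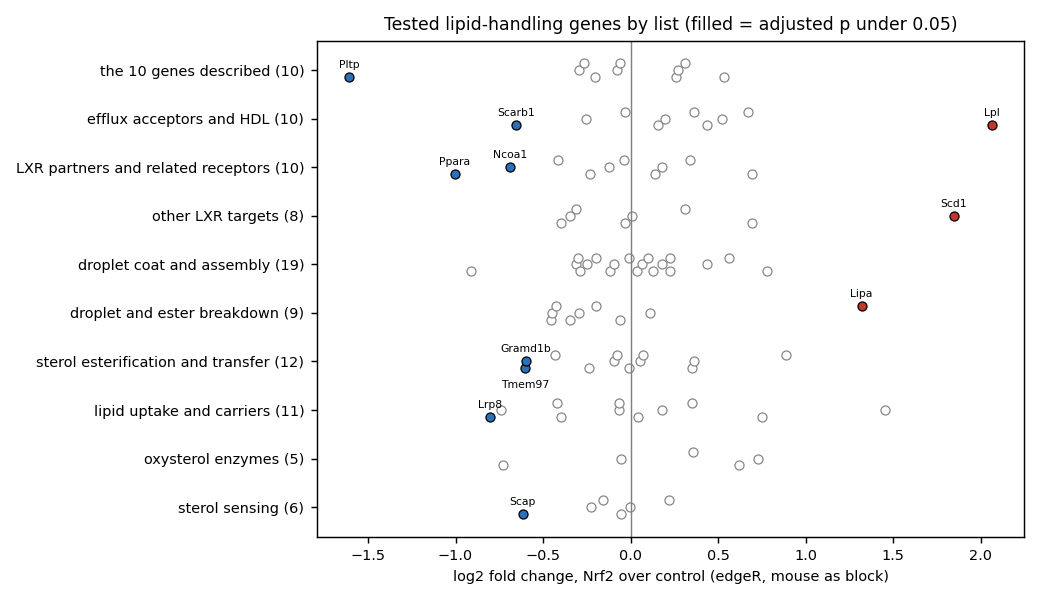
Log2 fold change (Nrf2 over control, 5 mice) of each tested lipid-handling gene by list, with the number tested in brackets and genes past an adjusted p of 0.05 filled and named. Lpl (2.06), Scd1 (1.84) and Lipa (1.32) lie to the right, Pltp (-1.61) farthest to the left, and the 7 other genes that fell between -1.01 and -0.60.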

How the data were processed

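RNA was measured in 10 libraries, 1 from each eye of 5 mice. Reads were aligned by the authors to mm10 with STAR, using Ensembl transcripts, and counted with featureCounts. In parallel the authors estimated counts with Salmon (version 0.8.2 in the submitters' processing notes). Which of these was deposited and the strand setting were not stated. The deposited table holds whole-number counts of each gene, not normalized, with 0 columns of other samples. Of the 47729 gene identifiers, 99.12% had an entry in GENCODE M21 (GRCm38, the same build).

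The whole table was fitted in R 4.3.3 with edgeR 4.0.16 (filterByExpr by group, TMM scaling, the mouse as a block, quasi-likelihood F test, Benjamini-Hochberg adjustment over 16362 genes, threshold 0.05), and the scripts were tested on simulated data. Log2 CPM used a prior count of 2. Each SE is that of the mean of the 5 differences within mice. Ratios of paired genes were tested with a two-sided exact sign-flip permutation test over 5 mice, adjusted over 4 pairs. Eyes were paired by the animal number in the labels. A count of 0 would allow up to 3 counts, or 0.113 to 0.235 CPM, counting error only.

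The 10 genes and all lists were chosen with earlier results of these data known. Named genes are the 10 genes, 12 others fixed by name (1 is not reported here), up to 2 called genes in each direction per list, the 3 genes most like each called gene, Nfe2l2 as the delivered factor, and defining markers of the marker lists. The correlations of the RPE markers with Pltp, and the naming of Lpin1, Ctsa and Rmc1 beside a count or an overlap, were chosen after values were seen. Alternatives were a fit with no replicate block, RLE size factors, DESeq2 1.42.0, no filter, a mean of at least 50 counts, thinning to the smallest total, rod markers as a covariate, and each mouse left out. The text gives no sequence for Npc1 or Abcg1.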

Additional observations from a re-analysis of the deposited data

Results flagged for a closer look

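Of 72 groups of 5 eyes checked for a sample far from the others (the named genes and marker sums in each group), 1 stood out, where chance flags about 1 in 20 groups, or 3.6. This was the rod marker sum in the Nrf2 eye of mouse 2, at 12.87 on the log2 scale (7503 CPM against 316 to 485 CPM in the other 4 Nrf2 eyes), with a gap of 0.865 of the range. The control eye of the same mouse had the highest rod marker sum of all libraries, 19538 CPM. Without mouse 2 the log2 fold change of Pltp was -1.58 (edgeR, adjusted p = 0.0113), and Pltp was still the only one of the 10 genes called.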

How the results depend on the processing

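Pltp was the 1 gene called of the 10 in each of the 12 alternatives, with adjusted p up to 0.0160. Without the replicate block, that is without pairing by mouse, 755 genes were called, 687 of them shared with the fit with the block, and 6 of the other lipid-handling genes. DESeq2 called 1812 of 19592 genes and 16 of the other lipid-handling genes, and the rod covariate left 501 and 3. Leaving out 1 mouse gave 584 (mouse 2) to 857 (mouse 1) genes, and 3 to 8 of the other lipid-handling genes, where the lowest came without mouse 2; fewer samples enter these fits. Of the genes that fell, calls were lost in 8 (Gramd1b), 7 (Ppara, Scap), 5 (Scarb1, Lrp8) and 3 (Ncoa1, Tmem97) of 12 alternatives, while the log2 fold changes over these alternatives ran from -0.65 to -0.50 (Gramd1b), -1.05 to -0.92 (Ppara), -0.64 to -0.48 (Scap), -0.72 to -0.52 (Scarb1), -0.88 to -0.62 (Lrp8), -0.72 to -0.57 (Ncoa1) and -0.62 to -0.51 (Tmem97). Values that reversed were all of genes or ratios that did not pass: Npc2 with the rod covariate (0.033), and some of those that left out 1 mouse. The latter gave -0.16 to 0.039 for Npc2 (above 0 without mouse 2 or 4), -0.034 (without mouse 1) to 0.57 for Abcg1, -0.065 to 0.086 for Mylip (above 0 without mouse 2 or 5), -0.68 to 0.23 (without mouse 3) for Plin5 and -0.15 to 0.18 (without mouse 1) for the ratio of Plin2 to Plin3. The cause was not tested. RLE scaling, the filters, thinning and a prior count of 0.5 reversed none of the results. Plin5 had values in 10 and Cd36 in 11 of the alternatives. With 5 mice, changes as small as those of Plin3 and Npc1 can miss the threshold, and a p that misses it does not show equal levels.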
